A study of Rattus norvegicus with 9 samples.

Results

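The hypoxia response and glycolysis genes were examined in cultured rat fibroblasts of 3 origins. The set was a list of 39 gene symbols. It comprises the enzymes and transporters that carry glucose to lactate and genes that are known to be induced when oxygen falls. Its genes were the rows of the deposited expression table that carried these symbols. Of the 39 symbols, 38 were found among the 32883 rows of the table, and Pfkfb4 was not found by its symbol. The rule uses no measured value, but the list was chosen with earlier results of these data known. All 38 genes passed the filter on low counts, which left 13273 genes for testing.

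The libraries came from the epineurium, the connective tissue sheath around a nerve (Fb-Epn), from the parenchyma inside that sheath (Fb-Par) and from abdominal skin (Fb-Skn), with 3 libraries of each type. The donors were wild-type male Lewis rats, 10 weeks of age: the nerve fibroblasts came from the sciatic nerves of 2 rats and the skin fibroblasts from 1 other rat. Tissue, animal and body site thus changed together between nerve and skin, and the 3 libraries of a type cannot be 3 separate animals. The sources do not say that the libraries of a type came from separate cultures, so p-values measure the spread between these libraries, which may be technical. The tissues were digested with collagenase and trypsin, grown in DMEM/Ham's F-12 with 10% fetal bovine serum and passaged once before RNA was taken. Neither an oxygen level nor the confluence at harvest is given in the sources used here, and no library was labelled as hypoxic.

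As background, hypoxia-inducible factors (HIFs) are pairs of an oxygen-regulated alpha subunit, encoded by Hif1a or Epas1, and a stable partner, ARNT. When oxygen is present, prolyl hydroxylases encoded by the Egln genes mark the alpha subunits for destruction, and when oxygen falls the subunits persist and bind a short DNA core, ACGTG or GCGTG, near their target genes. HIF targets include most glycolytic enzymes, the glucose transporter GLUT1, the lactate exporter MCT4 and genes that restrain mitochondrial respiration. This control of the alpha subunits acts mainly on the proteins, which were not measured here; the libraries report mRNA. In bulk libraries such as these, a change in the number of cells that express a gene and a change in the RNA per cell cannot be told apart.

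Total counts ranged from 10084584 to 12310506 per library, and the genes of the set took 1.26 to 1.30% of all counts in Fb-Epn, 0.5999 to 0.623% in Fb-Par and 0.770 to 0.799% in Fb-Skn. The level of a gene is given in TPM, a unit of transcript abundance that corrects for gene length and library size. Fold changes and tests come from the counts of all 9 libraries in 1 edgeR quasi-likelihood model, with Benjamini-Hochberg adjustment over all 13273 genes. A gene is said to differ, or to be called, at an adjusted p under 0.01; a DE gene also had an absolute log2 fold change over 2, that is, over 4-fold. Because the comparisons share libraries, their results are not independent of each other. An exact permutation test of 3 libraries against 3 reaches no p below 0.1 for any gene, and none is given.

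Most of the set stood highest in Fb-Epn. Summed over the 38 genes, the level was 15658 ± 191 TPM in Fb-Epn, against 7202 ± 131 TPM in Fb-Par and 9160 ± 37.7 TPM in Fb-Skn (mean ± SD, n = 3 libraries each), and the 3 types did not overlap in any library. By type mean, 25 genes were ordered Fb-Epn over Fb-Skn over Fb-Par, 9 were ordered Fb-Epn over Fb-Par over Fb-Skn, Epas1 and Ndrg1 were highest in Fb-Par, and P4ha2 and Eno2 were highest in Fb-Skn, Eno2 because of 1 library (Fb-Skn replicate 2). Within a type the libraries lay close together: the median coefficient of variation of a gene's TPM was 3.50% in Fb-Epn, against 6.51% in Fb-Par and 4.57% in Fb-Skn. This coefficient exceeded 25% for Slc2a3 in Fb-Epn, for Ankrd37, Ca12, Egln3, Eno2, Slc2a3 and Tpi1 in Fb-Par and for Ankrd37, Ca12, Eno2, Slc2a3 and Tpi1 in Fb-Skn.

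**Figure D1:**
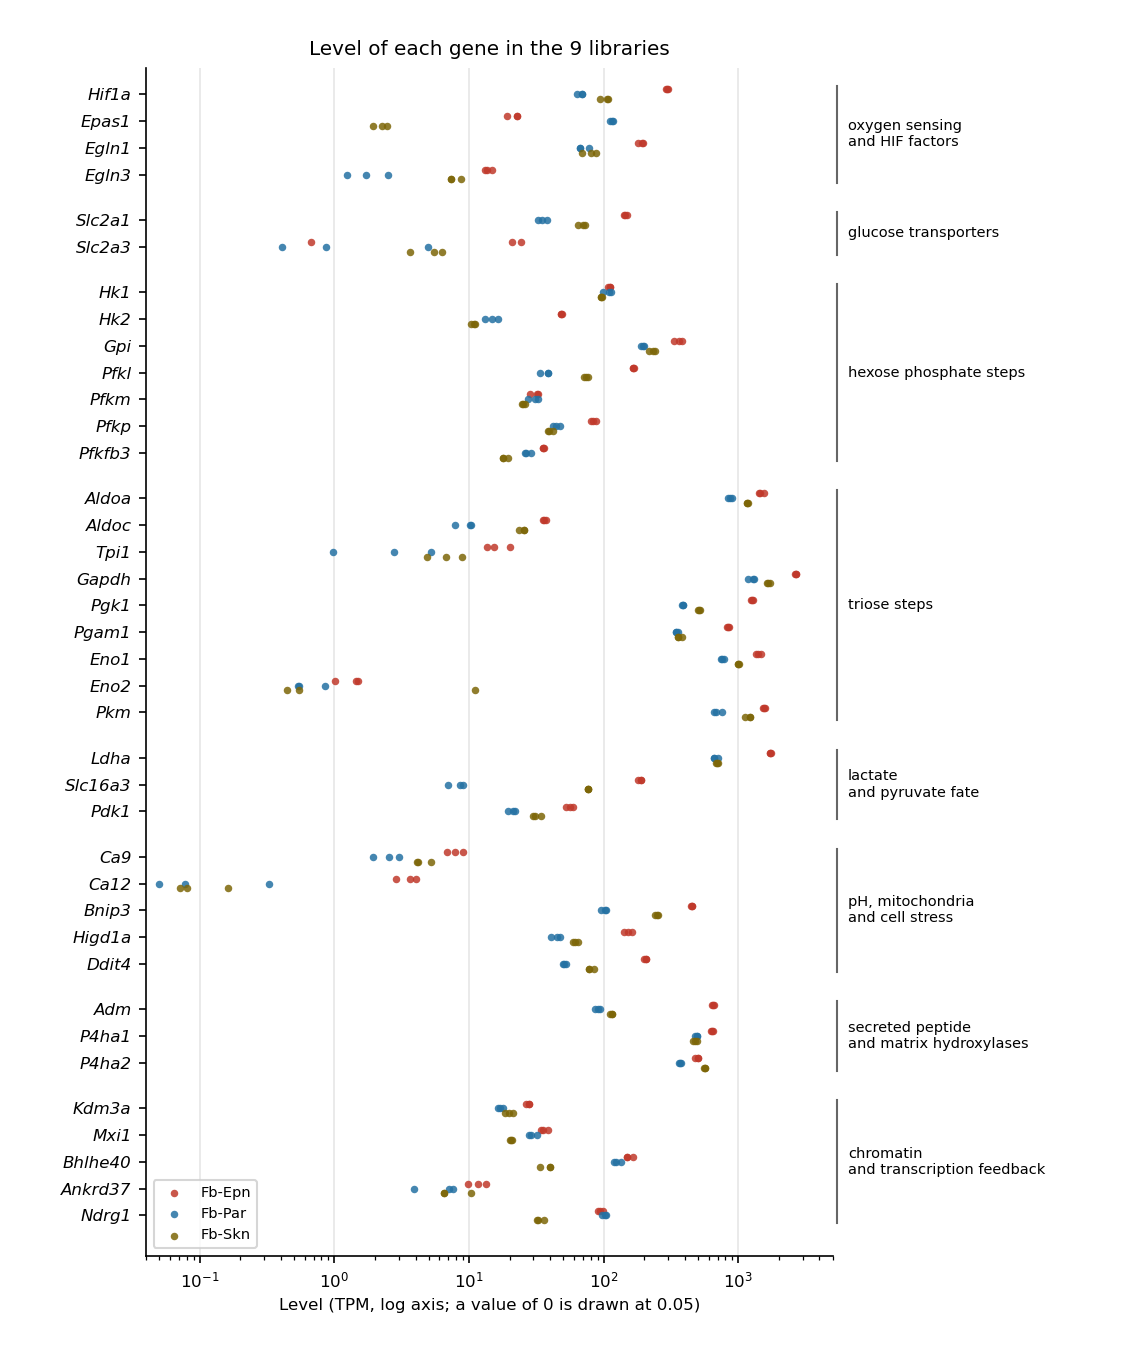
Level of each of the 38 genes in each of the 9 libraries, in TPM on a log axis, with the genes grouped by role and each point a library coloured by fibroblast type (a value of 0 is drawn at 0.05). In most rows the 3 Fb-Epn points lie to the right of the others, while Epas1 is highest in Fb-Par, from 112 to 117 TPM, and Hk1 and Pfkm have their points close together.

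Against Fb-Skn, 30 of the 38 genes were higher in Fb-Epn, 1 was lower (P4ha2) and 7 were not called, where 23.0% of all tested genes were higher and 20.9% were lower. The median log2 fold change of the set was 0.87, beside -0.0028 over all tested genes. Differences past the DE limit were fewer: Hk2, Epas1, Adm and Ca12 were DE genes higher in Fb-Epn (4 of 38, against 6.22% of all tested genes) and no gene of the set was DE and lower (against 2.22%). In Fb-Par the set lay mostly below Fb-Skn, with 25 genes lower, 6 higher and 7 not called, where 22.4% of all tested genes were lower and 23.2% were higher. The median log2 fold change was -0.56, beside -0.012 over all tested genes; Slc16a3 and Egln3 were DE and lower (2 of 38, against 2.67%) and Epas1 was DE and higher (1 of 38, against 5.86%). The scale matters for the small differences from Fb-Skn. On log2(TPM + 1), tested with limma, the median of all tested genes lay 0.13 (log2) higher for Fb-Epn and 0.14 higher for Fb-Par than on the edgeR scale, and the share of called genes that were higher went from 52.4 to 69.0% for Fb-Epn and from 50.8 to 66.9% for Fb-Par (63.7% and 61.9% with counts scaled by library size alone). Of the set, 6 genes were then higher and 19 lower in Fb-Par.

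Between the nerve types, 31 genes were higher in Fb-Epn compared with Fb-Par, 1 was lower (Epas1) and 6 were not called, where 20.2% of all tested genes were higher and 18.6% were lower. The median log2 fold change was 1.32, beside -0.00018 over all tested genes. Here 10 genes were DE and higher in Fb-Epn (against 4.09% of all tested genes), namely Pfkl, Egln3, Slc2a1, Hif1a, Tpi1, Bnip3, Ca12, Adm, Slc16a3 and Ddit4, and Epas1 was DE and lower (1 of 38, against 2.39%). Without Slc2a3, Eno2 and Tpi1, whose rows are uncertain for reasons given below, 30 of 35 genes were higher in Fb-Epn compared with Fb-Skn, 24 of 35 were lower in Fb-Par than in Fb-Skn, and 30 of 35 were higher in Fb-Epn compared with Fb-Par.

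**Figure D2:**
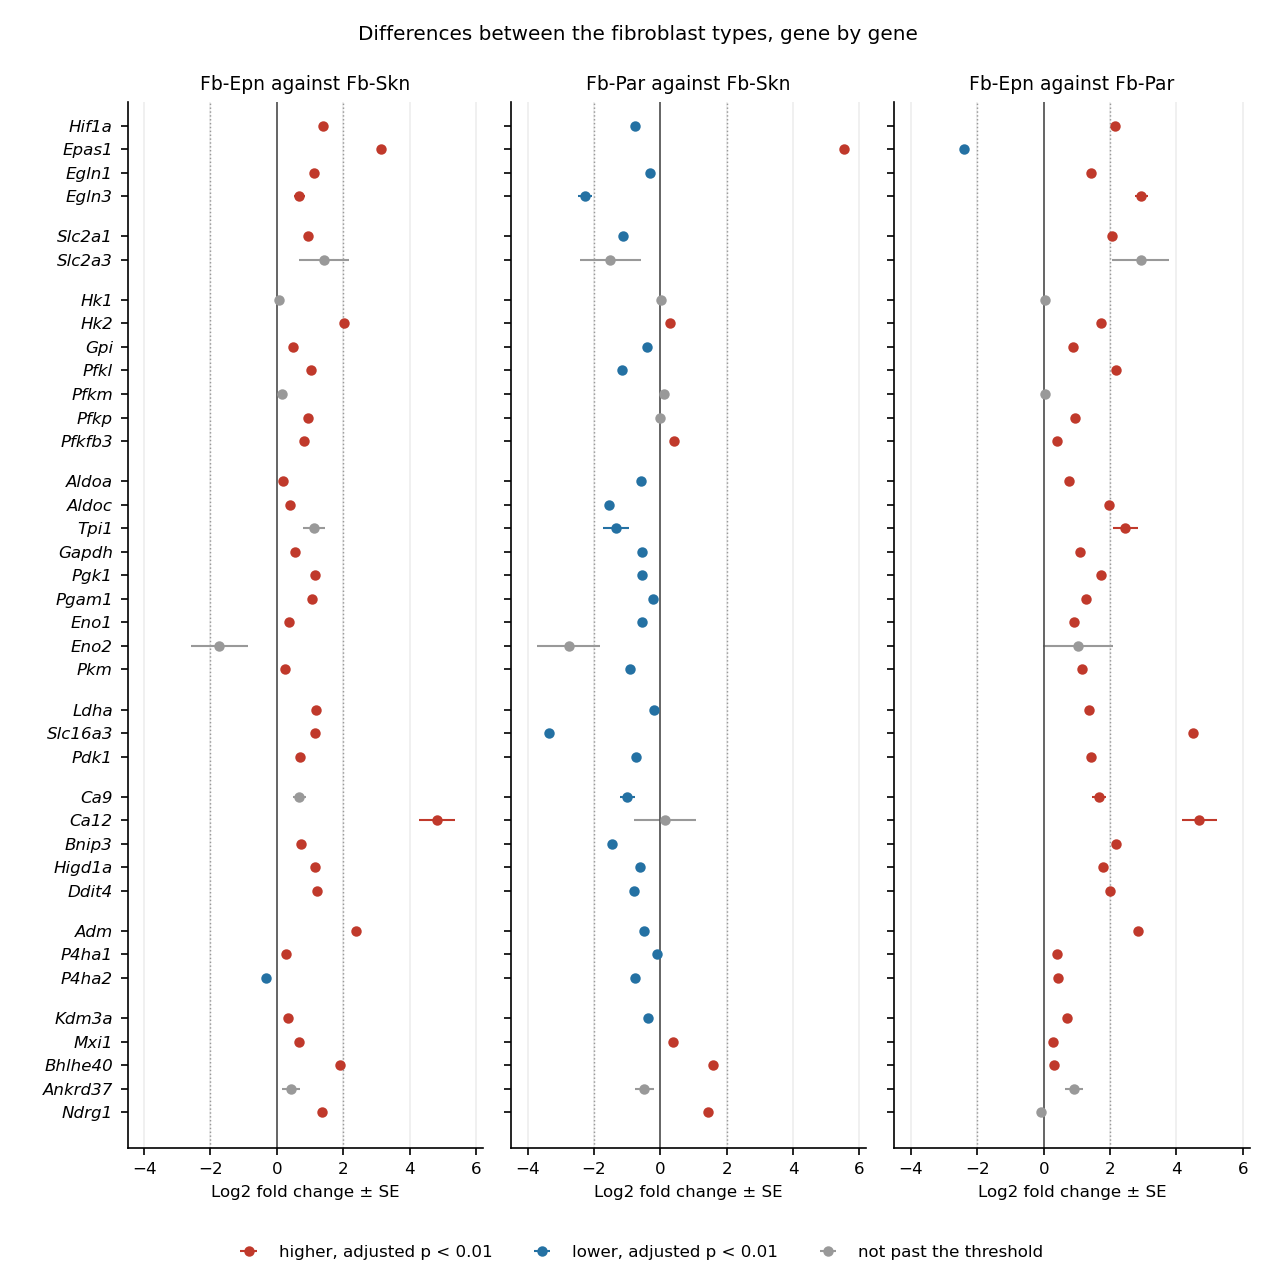
Log2 fold change with its standard error for each of the 38 genes in the 3 comparisons (edgeR, n = 3 libraries a type), coloured by whether the gene was higher, lower or not past an adjusted p of 0.01; dotted lines mark an absolute log2 fold change of 2. In the middle panel 25 genes are called lower and Epas1 stands at 5.54, whereas in the outer panels 30 and 31 genes are called higher.

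The promoters of 4 genes are shown to let the HIF core be seen in place. Ldha, Slc2a1 and Bnip3 are textbook HIF targets that were higher in Fb-Epn than in either other type, and Epas1 is the gene of the set that ran the other way between the nerve types. Each line gives the 250 bases before the start of transcription, 5′ to 3′ on the strand of the gene, from RefSeq on the assembly GRCr8, with the letters ACGTG or GCGTG, or their reverse complements, in capitals; CACGTG holds ACGTG on both strands and counts as 2 matches. The windows are chr1:106507842-106508091 (plus strand) for Ldha, chr5:138002272-138002521 (plus strand) for Slc2a1, chr1:203154963-203155212 (minus strand) for Bnip3 and chr6:13624730-13624979 (minus strand) for Epas1.
Ldha: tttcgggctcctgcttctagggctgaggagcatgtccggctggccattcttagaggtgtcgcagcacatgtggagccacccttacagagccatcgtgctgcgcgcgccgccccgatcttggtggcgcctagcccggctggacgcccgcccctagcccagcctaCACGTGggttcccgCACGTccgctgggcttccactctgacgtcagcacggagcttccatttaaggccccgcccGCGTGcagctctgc
Slc2a1: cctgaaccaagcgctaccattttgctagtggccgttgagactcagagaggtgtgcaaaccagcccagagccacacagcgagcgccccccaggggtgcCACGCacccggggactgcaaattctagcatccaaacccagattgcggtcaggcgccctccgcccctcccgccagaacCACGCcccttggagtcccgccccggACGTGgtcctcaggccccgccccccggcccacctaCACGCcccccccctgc
Bnip3: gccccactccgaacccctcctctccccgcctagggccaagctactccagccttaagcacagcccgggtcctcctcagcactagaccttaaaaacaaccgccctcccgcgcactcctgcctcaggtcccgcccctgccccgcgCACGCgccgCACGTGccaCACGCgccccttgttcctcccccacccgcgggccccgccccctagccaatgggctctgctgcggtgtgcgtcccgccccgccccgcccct
Epas1: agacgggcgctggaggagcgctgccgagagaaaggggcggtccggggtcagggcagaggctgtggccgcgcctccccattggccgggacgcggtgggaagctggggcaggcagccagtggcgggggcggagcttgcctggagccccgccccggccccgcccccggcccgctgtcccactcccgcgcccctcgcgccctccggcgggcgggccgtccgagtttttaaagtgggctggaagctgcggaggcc
The Ldha, Slc2a1 and Bnip3 windows each held 4 matches, and the Epas1 window held 0. Across the set, matches did not follow direction in this way. P4ha2, the gene called lower in Fb-Epn relative to Fb-Skn, had the most matches, 5. Among the DE genes raised in Fb-Epn between the nerve types, Adm, Slc16a3, Egln3, Ca12 and Tpi1 had 0 matches. The others, Pfkl, Slc2a1, Hif1a, Bnip3 and Ddit4, had 2 or more. RefSeq promoter entries were found for 35 of the 38 genes, with 40 windows in all, and 26 of the 40 windows (65.0%) held at least 1 match. The share was 54.8% among 10653 windows of tested genes matched by symbol and 36.7% among all 33469 windows of the same length; the median GC content was 65.2%, 60.4% and 51.2% in these 3 groups, so the groups differ in base composition as well. A match in a window is a description of its letters, not a site of binding. Besides Epas1, the windows of Adm, Hk2, Pkm, Ca9, Ca12, Egln3, Gpi, Slc16a3 and Tpi1 held 0 matches, which says only that these letters do not occur in the 250 bases listed.

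Among the genes of oxygen sensing, the HIF alpha subunits took opposite orders in the nerve. Hif1a (rn6 chr6:96810907-96856052), which encodes HIF-1alpha, was measured at 292, 299 and 295 TPM in the 3 Fb-Epn libraries, at 69.5, 69.0 and 63.3 TPM in Fb-Par and at 94.6, 108 and 106 TPM in Fb-Skn. No library of Fb-Epn overlapped any other, and Fb-Par lay below Fb-Skn in every library. Hif1a was 2.60-fold higher in Fb-Epn compared with Fb-Skn (log2 fold change 1.38 ± 0.045 SE, edgeR adjusted p = 2.52e-12). It was 1.70-fold lower in Fb-Par than in Fb-Skn (log2 fold change -0.76 ± 0.047 SE, edgeR adjusted p = 3.52e-09). The difference between the nerve types was 4.42-fold (log2 fold change 2.14 ± 0.046 SE, edgeR adjusted p = 3.01e-14).

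Epas1 (rn6 chr6:10306405-10387265), which encodes HIF-2alpha, the subunit known best from endothelium and other perivascular cells, was measured at 19.2, 22.8 and 22.8 TPM in Fb-Epn, at 112, 117 and 116 TPM in Fb-Par and at 2.25, 1.93 and 2.47 TPM in Fb-Skn. The 3 types were fully separate, in the order Fb-Par, Fb-Epn, Fb-Skn. This was the widest range of type means in the set, 51.8-fold. Epas1 was 46.5-fold higher in Fb-Par compared with Fb-Skn (log2 fold change 5.54 ± 0.088 SE, edgeR adjusted p = 7.78e-16). It was 8.82-fold higher in Fb-Epn compared with Fb-Skn (log2 fold change 3.14 ± 0.098 SE, edgeR adjusted p = 1.63e-12). Between the nerve types it was 5.27-fold lower in Fb-Epn (log2 fold change -2.40 ± 0.064 SE, edgeR adjusted p = 3.57e-13). Within a library, the ratio of Hif1a TPM to Epas1 TPM was 13.7 ± 1.25 in Fb-Epn, against 0.586 ± 0.0376 in Fb-Par and 47.1 ± 7.87 in Fb-Skn (mean ± SD, n = 3). Epas1 made up 63.1 ± 1.498% of the summed alpha subunit TPM in Fb-Par and 6.81 ± 0.553% in Fb-Epn.

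Epas1 is also expressed by cells that a nerve culture could hold, and the markers of several of them stood beside it. The summed TPM of 8 mural cell markers was 110 to 113 in Fb-Epn, 555 to 583 in Fb-Par and 284 to 298 in Fb-Skn, most of it from Mcam and Myh11. By gene, 7 of the 8 were higher and 0 lower in Fb-Par against Fb-Skn (23.2% and 22.4% of all tested genes). Between the nerve types, 1 was higher and 5 were lower in Fb-Epn (20.2% and 18.6%). In Fb-Epn against Fb-Skn the list was split, with 5 higher and 3 lower (23.0% and 20.9%). Notch3 averaged 6.35, 72.5 and 1.55 TPM and Rgs5 4.49, 14.9 and 0 TPM in the order Fb-Epn, Fb-Par, Fb-Skn. The summed TPM of 12 Schwann cell markers was 245 to 256 in Fb-Epn, 300.0 to 308 in Fb-Par and 20.2 to 22.5 in Fb-Skn. The summed TPM of 10 endothelial markers was 35.0 to 39.6 in Fb-Epn, 26.5 to 27.3 in Fb-Par and 24.3 to 34.3 in Fb-Skn, most of it from Egfl7, which is also expressed outside endothelium. Among the others, Cdh5 averaged 1.78 TPM in Fb-Epn, against 0.0968 in Fb-Par and 0 in Fb-Skn, and Tek averaged 8.37, 10.2 and 1.20 TPM in the same order of types. The part of mural, Schwann or endothelial cells in the Epas1 result was not tested.

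Of the prolyl hydroxylase genes, Egln1 and Egln3 had the type order of Hif1a. Egln2, which is not in the set, made up 21.3 ± 1.56% of the summed Egln TPM in Fb-Epn, against 44.8 ± 1.44% in Fb-Par and 35.3 ± 1.73% in Fb-Skn. Egln1, which encodes PHD2, the main oxygen sensor of most cells, was measured at 178, 195 and 192 TPM in Fb-Epn, at 77.1, 66.5 and 66.8 TPM in Fb-Par and at 68.8, 87.7 and 81.0 TPM in Fb-Skn. It was higher in Fb-Epn compared with Fb-Skn (log2 fold change 1.11 ± 0.085 SE, edgeR adjusted p = 4.77e-08) and higher than in Fb-Par (log2 fold change 1.43 ± 0.086 SE, edgeR adjusted p = 3.47e-09). Fb-Par and Fb-Skn overlapped in TPM; the counts gave -0.32 ± 0.092 with an edgeR adjusted p of 0.00878, and this call was lost in 15 alternatives (adjusted p up to 0.137), among them leaving out any Fb-Epn library, Fb-Par replicate 2 or 3 or Fb-Skn replicate 2 or 3. Egln3 (PHD3), itself a strongly oxygen-responsive gene, was at 13.1, 13.6 and 14.8 TPM in Fb-Epn, against 1.23, 1.72 and 2.49 TPM in Fb-Par and 8.73, 7.31 and 7.40 TPM in Fb-Skn. It was 4.81-fold lower in Fb-Par than in Fb-Skn (log2 fold change -2.26 ± 0.20 SE, edgeR adjusted p = 2.21e-07) and 7.69-fold higher in Fb-Epn compared with Fb-Par (log2 fold change 2.94 ± 0.19 SE, edgeR adjusted p = 9.74e-09). The smaller Fb-Epn to Fb-Skn difference of 0.68 ± 0.16 had an edgeR adjusted p of 0.0027 and was not called without Fb-Epn replicate 3, Fb-Skn replicate 2 or Fb-Skn replicate 3 (adjusted p up to 0.0163).

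**Figure D3:**
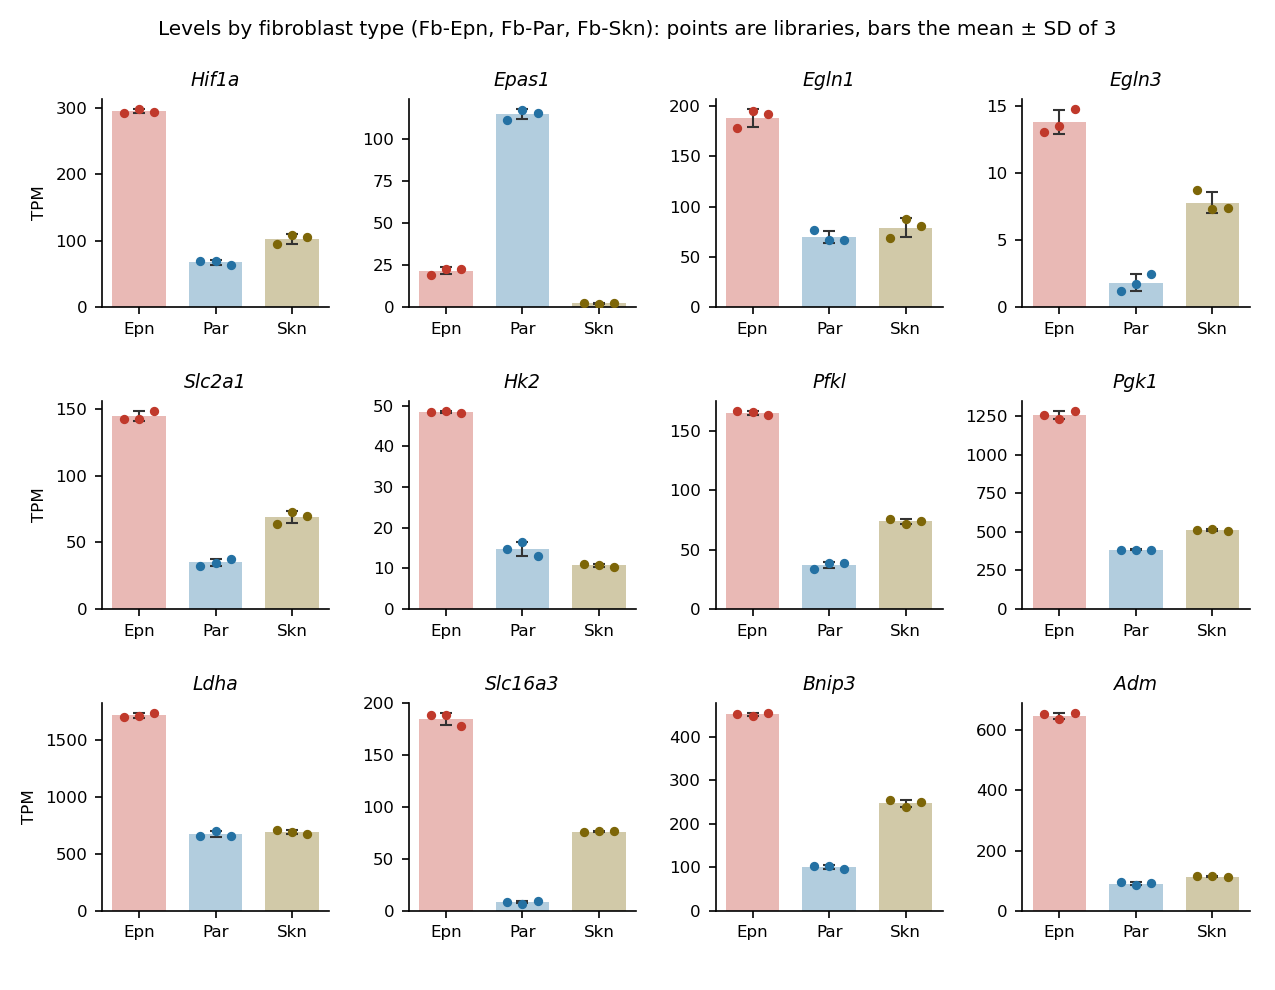
TPM of 12 genes of the set in each library (points) with the mean and SD of 3 libraries a type (bars); each panel has its own vertical axis, starting at 0. Fb-Epn is highest in every panel but that of Epas1, where Fb-Par averages 115 TPM against 21.6 in Fb-Epn and 2.22 in Fb-Skn.

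Glucose enters these cells through facilitative transporters. Slc2a1, which encodes GLUT1, was measured at 143, 143 and 149 TPM in Fb-Epn, at 32.6, 34.6 and 37.6 TPM in Fb-Par and at 64.0, 73.1 and 69.9 TPM in Fb-Skn. The 3 types did not overlap, with Fb-Epn at the top and Fb-Par at the bottom. Slc2a1 was 1.90-fold higher in Fb-Epn compared with Fb-Skn (log2 fold change 0.93 ± 0.054 SE, edgeR adjusted p = 2.28e-09). It was 2.19-fold lower in Fb-Par than in Fb-Skn (log2 fold change -1.13 ± 0.060 SE, edgeR adjusted p = 6.14e-10) and 4.17-fold higher in Fb-Epn compared with Fb-Par (log2 fold change 2.06 ± 0.058 SE, edgeR adjusted p = 6.07e-13). GLUT1 also marks perineurial cells, which the study places within Fb-Par, their sheath being tightly attached to the parenchyma. Of 10 other perineurial markers the defining Cldn1 averaged 0.1001 TPM in Fb-Epn, against 0.324 in Fb-Par and 0 in Fb-Skn. Their summed TPM was 121 to 126 in Fb-Epn, 376 to 393 in Fb-Par and 107 to 116 in Fb-Skn, most of it in Fb-Par from Ntn4, which averaged 26.1 TPM in Fb-Epn, against 302 in Fb-Par and 56.7 in Fb-Skn. Cldn1 held no more than 7 counts in any library. Gene by gene, this list was split. Between the nerve types, 3 of the 6 tested markers were raised in Fb-Epn and 2, Ntn4 and Tenm2, were reduced (20.2% and 18.6% of all tested genes). Itgb4 averaged 13.7 TPM in Fb-Epn against 8.51 in Fb-Par, and Mpzl2 averaged 2.79 against 0.811. Whether perineurial cells had a part in the Slc2a1 result was not tested.

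Slc2a3, which encodes the high-affinity transporter GLUT3, had few and scattered counts: 5, 204 and 158 in the 3 Fb-Epn libraries, 7, 35 and 3 in Fb-Par and 51, 39 and 26 in Fb-Skn. Fb-Epn replicate 1 thus lay below every Fb-Skn library while the other Fb-Epn libraries lay above all others, and no comparison was called (edgeR adjusted p = 0.128 against Fb-Skn and 0.0112 against Fb-Par). Without Fb-Epn replicate 1 the gene was called higher in Fb-Epn in both (log2 fold change 1.99 against Fb-Skn and 3.48 against Fb-Par), and without Fb-Par replicate 2 it was called against Fb-Par (4.56). Another row, LOC100909595, carries the Entrez identifier of Slc2a3 and held up to 17 counts per library, so reads of this gene may be split between copies in rn6 and its level is uncertain.

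The first steps of glycolysis, which trap glucose as hexose phosphates, were divided between genes that differed strongly and genes that hardly moved. Hk2, the inducible hexokinase, was measured at 48.5, 48.8 and 48.3 TPM in Fb-Epn, at 14.7, 16.4 and 13.1 TPM in Fb-Par and at 11.1, 10.8 and 10.3 TPM in Fb-Skn. Every Fb-Epn library was above every other, and Fb-Par lay slightly above Fb-Skn. Hk2 was 4.09-fold higher in Fb-Epn compared with Fb-Skn (log2 fold change 2.03 ± 0.073 SE, edgeR adjusted p = 7.67e-12) and 3.32-fold higher than in Fb-Par (log2 fold change 1.73 ± 0.070 SE, edgeR adjusted p = 3.55e-11). The difference of Fb-Par from Fb-Skn was 0.30 ± 0.078 (edgeR adjusted p = 0.00406), and it was not called when Fb-Par replicate 1 or 2 or Fb-Skn replicate 2 or 3 was left out (adjusted p up to 0.0199).

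Hk1, the constitutive hexokinase, averaged 110.1 ± 2.26 TPM in Fb-Epn, against 108 ± 7.43 in Fb-Par and 95.5 ± 0.854 in Fb-Skn. None of its differences was called, although its Fb-Skn libraries lay below all others in TPM, and Fb-Epn against Fb-Skn was called on the TPM scale. The log2 fold changes were 0.07 ± 0.050, 0.02 ± 0.050 and 0.05 ± 0.049 in the order Fb-Epn to Fb-Skn, Fb-Par to Fb-Skn and Fb-Epn to Fb-Par. Together with Hk3, a hexokinase of myeloid cells that is not in the set, they made up the hexokinase TPM, of which Hk2 held 28.1 ± 0.317% in Fb-Epn, against 11.8 ± 1.14% in Fb-Par and 10.1 ± 0.4497% in Fb-Skn. Hk3 itself was higher in Fb-Epn compared with Fb-Skn (log2 fold change 4.37 ± 0.27 SE, edgeR adjusted p = 4.71e-09), at 14.1 ± 1.22 TPM against 0.625 ± 0.371 TPM.

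Gpi, which isomerises glucose 6-phosphate, averaged 359 ± 22.8 TPM in Fb-Epn, against 195 ± 5.59 in Fb-Par and 230.4 ± 11.5 in Fb-Skn, and all 3 comparisons were called, with log2 fold changes of 0.50 ± 0.050, -0.39 ± 0.051 and 0.90 ± 0.050 in the same order of comparisons. Phosphofructokinase commits sugar to glycolysis and has liver, muscle and platelet forms. Pfkl, the liver form, was measured at 167, 166 and 164 TPM in Fb-Epn, at 33.8, 38.4 and 38.6 TPM in Fb-Par and at 75.9, 71.8 and 73.8 TPM in Fb-Skn. Its 3 types did not overlap, and it was 4.52-fold higher in Fb-Epn compared with Fb-Par (log2 fold change 2.17 ± 0.055 SE, edgeR adjusted p = 1.84e-13). Against Fb-Skn, Pfkl was higher in Fb-Epn by 1.02 ± 0.051 and lower in Fb-Par at -1.15 ± 0.056 on the log2 scale (edgeR adjusted p = 3.92e-10 and 2.58e-10).

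Pfkp, the platelet form, averaged 83.9 ± 3.76 TPM in Fb-Epn, against 44.3 ± 2.80 in Fb-Par and 39.8 ± 1.64 in Fb-Skn. It was higher in Fb-Epn than in either other type (log2 fold change 0.94 ± 0.062 against Fb-Skn and 0.93 ± 0.061 against Fb-Par, edgeR adjusted p = 8.76e-09 and 8.95e-09), and Fb-Par against Fb-Skn was not called (0.00 ± 0.064). Pfkm, the muscle form, averaged 30.9 ± 2.47, 30.2 ± 2.80 and 25.3 ± 0.637 TPM in the order Fb-Epn, Fb-Par, Fb-Skn and was called in no comparison. The liver form made up 59.0 ± 0.523% of the phosphofructokinase TPM in Fb-Epn, against 33.2 ± 1.41% in Fb-Par and 53.1 ± 0.689% in Fb-Skn. Pfkfb3, which makes fructose 2,6-bisphosphate, the activator of phosphofructokinase, averaged 35.7 ± 0.260 TPM in Fb-Epn, against 27.0 ± 1.62 in Fb-Par and 18.4 ± 0.764 in Fb-Skn. It was among the 6 genes that were higher in Fb-Par compared with Fb-Skn (log2 fold change 0.40 ± 0.058 SE, edgeR adjusted p = 3.67e-05), and it was higher still in Fb-Epn (log2 fold change 0.41 ± 0.056 SE, edgeR adjusted p = 2.28e-05).

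The triose steps, from aldolase to pyruvate kinase, held several of the most abundant genes of the set. Gapdh was measured at 2652, 2678 and 2679.9 TPM in Fb-Epn, at 1312, 1278 and 1172 TPM in Fb-Par and at 1630, 1725 and 1654 TPM in Fb-Skn. It was 1.45-fold higher in Fb-Epn compared with Fb-Skn (log2 fold change 0.54 ± 0.036 SE, edgeR adjusted p = 1.21e-08). It was 1.48-fold lower in Fb-Par than in Fb-Skn (log2 fold change -0.56 ± 0.037 SE, edgeR adjusted p = 7.29e-09), so that this common reference gene differed 2.14-fold between the nerve types (log2 fold change 1.10 ± 0.037 SE, edgeR adjusted p = 3.96e-12). Pgk1, the ATP-forming phosphoglycerate kinase, was at 1257, 1230.3 and 1284 TPM in Fb-Epn, against 385, 382 and 385 TPM in Fb-Par and 514, 520.4 and 503 TPM in Fb-Skn. The 3 types were separate, and Pgk1 was 3.30-fold higher in Fb-Epn compared with Fb-Par (log2 fold change 1.72 ± 0.030 SE, edgeR adjusted p = 2.44e-15) and 2.23-fold higher than in Fb-Skn (log2 fold change 1.15 ± 0.029 SE, edgeR adjusted p = 1.50e-13).

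Aldoa, Eno1 and Pkm, the aldolase, enolase and pyruvate kinase of most tissues, averaged 1470.4 ± 61.7, 1414 ± 53.5 and 1556 ± 28.6 TPM in Fb-Epn. Their Fb-Par means were 869 ± 25.6, 757 ± 15.5 and 700.3 ± 50.1 TPM and their Fb-Skn means 1165 ± 6.04, 1003 ± 8.13 and 1186 ± 56.6 TPM. All 3 genes were called in all 3 comparisons: the Fb-Epn to Fb-Skn differences were 0.20, 0.36 and 0.25 on the log2 scale, and those of Fb-Par to Fb-Skn were -0.57, -0.56 and -0.91. Pgam1, the mutase between them, lay apart from these enzymes in Fb-Epn, with 839.8 ± 17.7 TPM against 349 ± 8.32 in Fb-Par and 364 ± 13.2 in Fb-Skn, and was 2.09-fold higher in Fb-Epn compared with Fb-Skn (log2 fold change 1.07 ± 0.033 SE, edgeR adjusted p = 1.63e-12). Its Fb-Par and Fb-Skn libraries overlapped in TPM, and the call on counts (-0.21 ± 0.034, edgeR adjusted p = 9.80e-05) was lost on the TPM scale (limma adjusted p up to 0.169). Aldoc, a second aldolase at 36.4 ± 1.09 TPM in Fb-Epn, against 9.47 ± 1.35 in Fb-Par and 24.9 ± 1.13 in Fb-Skn, was 2.93-fold lower in Fb-Par than in Fb-Skn (log2 fold change -1.55 ± 0.11 SE, edgeR adjusted p = 2.52e-08). Its difference of 0.40 ± 0.10 between Fb-Epn and Fb-Skn (edgeR adjusted p = 0.00339) was not called without Fb-Epn replicate 2, Fb-Epn replicate 3 or Fb-Skn replicate 3 (adjusted p up to 0.0142).

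Tpi1 and Eno2 sit in a stretch that rn6 carries more than once, and their rows are uncertain. Tpi1, the isomerase between the aldolase and GAPDH steps, was listed at 20.1, 15.2 and 13.6 TPM in Fb-Epn, against 2.78, 5.26 and 0.971 TPM in Fb-Par and 6.74, 8.88 and 4.91 TPM in Fb-Skn. Its row lies at rn6 chr4:157328379-157331905. An unnamed row on chromosome 9, LOC100911515 (rn6 chr9:20213588-20217176), lies in the mirrored position between copies of the same neighbours. It held 341 to 2413 counts per library, of which the Tpi1 row would be 1.17 to 11.7% of the sum. The edgeR adjusted p of Tpi1 was 0.0119, 0.00955 and 6.69e-05 against Fb-Skn in Fb-Epn, against Fb-Skn in Fb-Par and between the nerve types; the unnamed row alone gave log2 fold changes of 0.89 ± 0.26, -0.67 ± 0.27 and 1.56 ± 0.26 (SE). The Tpi1 call in Fb-Par against Fb-Skn was lost in 13 alternatives, among them leaving out any Fb-Epn library, Fb-Par replicate 1 or 3 or Fb-Skn replicate 1 or 2, and the comparison of Fb-Epn with Fb-Skn was called in 9, among them without Fb-Par replicate 2 or 3. The files do not pair that row with a gene, so it was not counted as Tpi1.

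Eno2, the neuronal enolase, held 17, 20 and 12 counts in Fb-Epn, against 7, 6 and 10 in Fb-Par and 7, 125 and 5 in Fb-Skn, and Fb-Skn replicate 2 thus stood far from the other Fb-Skn libraries. No comparison of Eno2 was called (edgeR adjusted p = 0.1, 0.0224 and 0.443), and without Fb-Skn replicate 2 the log2 fold change of Fb-Epn from Fb-Skn went from -1.73 ± 0.85 to 1.24 and that of Fb-Par from -2.76 ± 0.95 to 0.21. Without Fb-Skn replicate 1 or 3, in turn, Fb-Par against Fb-Skn was called. LOC100911625, a row on chromosome 4 with the Entrez identifier of Eno2, held 7 to 38 counts per library. Pfkfb4, absent by symbol, is a like case: LOC100911725 carries its Entrez identifier, held 8 to 29 counts per library and was called in no comparison (log2 fold change 0.17 ± 0.43 between Fb-Epn and Fb-Skn, edgeR adjusted p = 0.765).

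The genes that decide the fate of pyruvate were all higher in Fb-Epn than in both other types. Ldha, the lactate dehydrogenase subunit that favours lactate, was measured at 1706, 1712 and 1745 TPM in Fb-Epn, at 655, 703 and 659 TPM in Fb-Par and at 707, 692 and 678 TPM in Fb-Skn. It was 2.26-fold higher in Fb-Epn compared with Fb-Skn (log2 fold change 1.17 ± 0.035 SE, edgeR adjusted p = 9.12e-13) and 2.58-fold higher than in Fb-Par (log2 fold change 1.37 ± 0.035 SE, edgeR adjusted p = 2.26e-13). Fb-Par and Fb-Skn overlapped in TPM; the counts gave a log2 fold change of -0.19 ± 0.035 (edgeR adjusted p = 0.000285), a call that was lost when libraries were scaled by size alone or by TPM (adjusted p up to 0.299). Ldhb, the other subunit and not in the set, had the larger share in Fb-Par: it made up 2.40 ± 0.166% of the summed Ldha and Ldhb TPM in Fb-Epn, against 9.33 ± 0.847% in Fb-Par and 4.54 ± 0.453% in Fb-Skn.

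Slc16a3 (rn6 chr10:110138586-110148358), which encodes MCT4, the lactate exporter of glycolytic cells, was measured at 189, 188 and 179 TPM in Fb-Epn, at 8.59, 6.98 and 9.06 TPM in Fb-Par and at 75.8, 76.6 and 76.8 TPM in Fb-Skn. The 3 types did not overlap, and the lowest Fb-Par library held 71 counts. Slc16a3 was 10.3-fold lower in Fb-Par than in Fb-Skn (log2 fold change -3.36 ± 0.074 SE, edgeR adjusted p = 2.63e-14). It was 22.7-fold higher in Fb-Epn compared with Fb-Par (log2 fold change 4.50 ± 0.071 SE, edgeR adjusted p = 8.64e-16) and 2.20-fold higher in Fb-Epn compared with Fb-Skn (log2 fold change 1.14 ± 0.053 SE, edgeR adjusted p = 1.77e-10). Over the transporters Slc16a1, Slc16a3 and Slc16a7 it made up 66.3 ± 0.857% of the TPM in Fb-Epn, against 7.63 ± 0.979% in Fb-Par and 59.4 ± 1.39% in Fb-Skn. Slc16a1 (MCT1, which carries lactate in either direction) made up 80.3 ± 1.97% in Fb-Par and 32.4 ± 1.25% in Fb-Epn. Pdk1, the kinase that shuts pyruvate dehydrogenase, was at 59.4, 56.0 and 52.6 TPM in Fb-Epn, against 22.1, 21.4 and 19.4 TPM in Fb-Par and 29.8, 34.1 and 31.0 TPM in Fb-Skn. The 3 types were separate, with log2 fold changes of 0.69 ± 0.081 for Fb-Epn and -0.74 ± 0.088 for Fb-Par against Fb-Skn (edgeR adjusted p = 4.83e-06 and 4.61e-06).

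**Figure D4:**
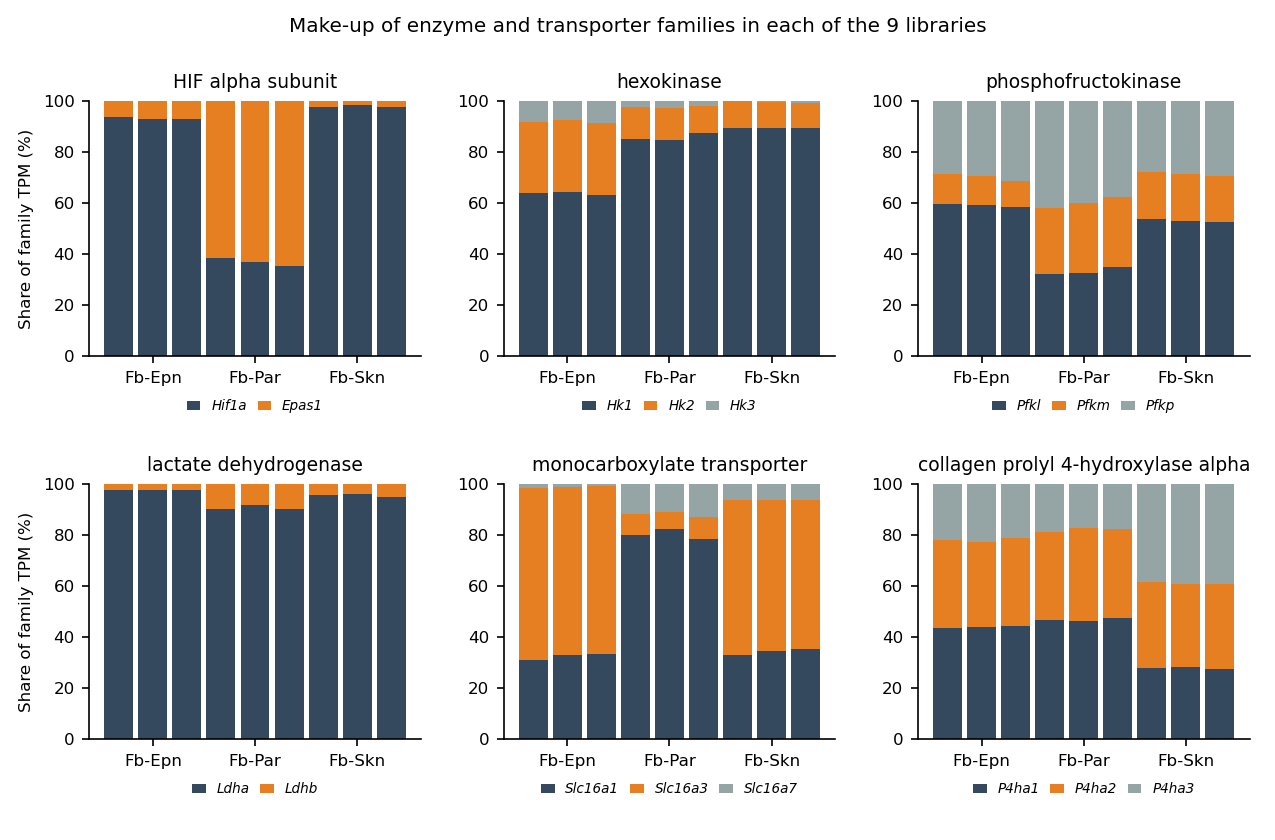
Share of each family's summed TPM, in percent, taken by each gene in each of the 9 libraries (bars in the order replicate 1 to 3 within a type). Epas1 and Slc16a1 take the larger part of their families in Fb-Par alone among the 3 types, Hk2 reaches 28.1% of hexokinase TPM in Fb-Epn, and P4ha3 reaches 38.9% of the collagen prolyl 4-hydroxylase alpha TPM in Fb-Skn.

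Of the 5 genes of pH control, mitochondria and cell stress, 4 were ordered Fb-Epn, Fb-Skn, Fb-Par. Bnip3, which marks mitochondria for removal, was measured at 454, 448 and 456 TPM in Fb-Epn, at 104, 103 and 96.1 TPM in Fb-Par and at 254, 238 and 250.4 TPM in Fb-Skn. Its types did not overlap, and it was 4.52-fold higher in Fb-Epn compared with Fb-Par (log2 fold change 2.18 ± 0.044 SE, edgeR adjusted p = 1.49e-14). It was 2.73-fold lower in Fb-Par than in Fb-Skn (log2 fold change -1.45 ± 0.045 SE, edgeR adjusted p = 1.35e-12). Ddit4 (REDD1), an inhibitor of mTORC1 signalling, was at 205, 207 and 199 TPM in Fb-Epn, against 49.8, 52.8 and 50.9 TPM in Fb-Par and 84.5, 77.7 and 77.6 TPM in Fb-Skn. It was 4.01-fold higher in Fb-Epn compared with Fb-Par (log2 fold change 2.00 ± 0.055 SE, edgeR adjusted p = 4.81e-13), just past the DE limit, and 2.31-fold higher than in Fb-Skn (log2 fold change 1.21 ± 0.053 SE, edgeR adjusted p = 7.70e-11). Higd1a, a mitochondrial protein of the respiratory complexes, averaged 152 ± 9.89 TPM in Fb-Epn, against 44.5 ± 3.58 in Fb-Par and 61.7 ± 2.84 in Fb-Skn and was called in all 3 comparisons.

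The carbonic anhydrases that handle acid outside the cell were scarce. Ca9 averaged 7.92 ± 1.02 TPM in Fb-Epn, against 2.49 ± 0.532 in Fb-Par and 4.50 ± 0.597 in Fb-Skn. It was lower in Fb-Par than in Fb-Skn (log2 fold change -0.99 ± 0.22 SE, edgeR adjusted p = 0.00143) and higher in Fb-Epn compared with Fb-Par (log2 fold change 1.67 ± 0.21 SE, edgeR adjusted p = 1.16e-05); the Fb-Epn to Fb-Skn difference of 0.67 ± 0.20 lay just above the threshold (edgeR adjusted p = 0.01, rounded) and was called in 10 alternatives, among them without Fb-Par replicate 1 or 2. Ca12 had 52, 42 and 48 counts in Fb-Epn, against 0, 4 and 1 in Fb-Par and 1, 2 and 1 in Fb-Skn. Pooled over libraries and scaled to their total counts, Fb-Epn was 32.6 times Fb-Skn (95% exact interval 12.4 to 121, counting error only) and 27.5 times Fb-Par (11.5 to 85.9), and both comparisons were called by edgeR (adjusted p = 3.88e-06 and 3.75e-06). Fb-Par and Fb-Skn, with 5 and 4 counts in all, could not be told apart at this depth.

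Adm, which encodes adrenomedullin, a secreted vasodilator peptide, was a DE gene in both comparisons of Fb-Epn. It was measured at 653, 637 and 656 TPM in Fb-Epn, at 94.3, 85.4 and 91.0 TPM in Fb-Par and at 115, 114 and 112 TPM in Fb-Skn. All Fb-Epn libraries stood far above the others, and Fb-Par lay below Fb-Skn in every library. Adm was 5.17-fold higher in Fb-Epn compared with Fb-Skn (log2 fold change 2.37 ± 0.042 SE, edgeR adjusted p = 3.29e-15). It was 7.23-fold higher than in Fb-Par (log2 fold change 2.85 ± 0.043 SE, edgeR adjusted p = 5.64e-16) and 1.40-fold lower in Fb-Par than in Fb-Skn (log2 fold change -0.48 ± 0.045 SE, edgeR adjusted p = 3.95e-07).

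P4ha1 and P4ha2 encode catalytic subunits of collagen prolyl 4-hydroxylase. P4ha2 was measured at 498, 480 and 501 TPM in Fb-Epn, at 366, 375 and 364 TPM in Fb-Par and at 565, 565 and 555 TPM in Fb-Skn. It was the gene of the set called lower in Fb-Epn relative to Fb-Skn (log2 fold change -0.33 ± 0.030 SE, edgeR adjusted p = 3.34e-07), and it was lower again in Fb-Par (log2 fold change -0.76 ± 0.030 SE, edgeR adjusted p = 2.40e-11). P4ha1 averaged 637 ± 12.4 TPM in Fb-Epn, against 489 ± 9.74 in Fb-Par and 476 ± 14.0 in Fb-Skn. It was higher in Fb-Epn compared with Fb-Skn (log2 fold change 0.28 ± 0.032 SE, edgeR adjusted p = 3.17e-06) and with Fb-Par (0.39 ± 0.032, edgeR adjusted p = 9.61e-08), whereas its difference of -0.11 ± 0.032 between Fb-Par and Fb-Skn (edgeR adjusted p = 0.0087) was lost in 14 alternatives, among them leaving out any single library but Fb-Skn replicate 3, and changed sign on the TPM scale (limma log2 difference 0.040). Within a library the ratio of P4ha2 to P4ha1 TPM was 0.774 ± 0.0243 in Fb-Epn, against 0.753 ± 0.0269 in Fb-Par and 1.18 ± 0.0258 in Fb-Skn.

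Transcription and chromatin genes numbered 5, of which 3 were higher than in Fb-Skn in both nerve types. Bhlhe40 (DEC1), a repressor, was measured at 166, 148 and 149.8 TPM in Fb-Epn, at 123, 135 and 119 TPM in Fb-Par and at 33.8, 39.8 and 40.1 TPM in Fb-Skn. Both nerve types lay above Fb-Skn in every library, by 1.89 ± 0.068 in Fb-Epn and 1.58 ± 0.069 in Fb-Par on the log2 scale (edgeR adjusted p = 8.64e-12 and 6.33e-11). Ndrg1, a stress-responsive gene that is also known from myelinating Schwann cells, was at 91.0, 93.8 and 98.1 TPM in Fb-Epn, against 97.6, 101 and 104 TPM in Fb-Par and 32.5, 35.9 and 32.1 TPM in Fb-Skn. The nerve types overlapped and their difference was not called (-0.09 ± 0.049, edgeR adjusted p = 0.145), and both were above Fb-Skn by 1.35 ± 0.053 in Fb-Epn and 1.44 ± 0.053 in Fb-Par (edgeR adjusted p = 2.12e-11 and 8.94e-12). The Schwann cell marker Sox10 averaged 14.5 TPM in Fb-Epn, against 30.9 in Fb-Par and 0 in Fb-Skn, and the part of Schwann cells in the Ndrg1 result was not tested.

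Mxi1, a MYC antagonist, averaged 36 ± 2.10 TPM in Fb-Epn, against 29.7 ± 2.23 in Fb-Par and 20.5 ± 0.429 in Fb-Skn and was higher in both nerve types than in Fb-Skn (0.68 ± 0.074 and 0.38 ± 0.075, edgeR adjusted p = 2.32e-06 and 0.000537). Its difference of 0.29 ± 0.071 between the nerve types (edgeR adjusted p = 0.00354) was not called without Fb-Epn replicate 2, Fb-Par replicate 1 or Fb-Par replicate 3 (adjusted p up to 0.0231). Kdm3a, a histone H3 lysine demethylase, kept the order of the glycolytic genes, at 27.3 ± 0.882 TPM in Fb-Epn, against 17.1 ± 0.872 in Fb-Par and 19.9 ± 1.33 in Fb-Skn. It was called in all 3 comparisons, with log2 fold changes of 0.32 ± 0.063, -0.37 ± 0.065 and 0.69 ± 0.063; the call of Fb-Par against Fb-Skn was lost on the TPM scale (limma adjusted p up to 0.0318). Ankrd37, at 11.6 ± 1.75, 6.19 ± 2.02 and 7.76 ± 2.21 TPM in the order Fb-Epn, Fb-Par, Fb-Skn, was called in none (edgeR adjusted p = 0.204, 0.18 and 0.0152).

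Other genes of the same pathways were counted as lists. The counts are to be read beside the shares of all tested genes: 23.0% higher and 20.9% lower in Fb-Epn against Fb-Skn, 23.2% and 22.4% in Fb-Par against Fb-Skn, and 20.2% and 18.6% in Fb-Epn against Fb-Par. Of 29 other hypoxia-induced genes that were tested, 17 were higher and 5 lower in Fb-Epn relative to Fb-Skn (median log2 fold change 0.57). In Fb-Par against Fb-Skn, 8 were higher and 14 lower (median -0.17), and 21 were higher and 2 lower in Fb-Epn than in Fb-Par (median 0.71); on the TPM scale the counts in Fb-Par against Fb-Skn were 11 and 12. Stc2 (stanniocalcin 2) and Cox4i2, the oxygen-responsive isoform of a cytochrome c oxidase subunit, were low in Fb-Par: Stc2 averaged 117 ± 3.68 TPM in Fb-Epn, against 7.53 ± 0.477 in Fb-Par and 130.1 ± 2.33 in Fb-Skn (log2 fold change -4.26 ± 0.069 SE against Fb-Skn, edgeR adjusted p = 8.70e-16). Cox4i2 averaged 20.7 ± 1.62, 0.445 ± 0.317 and 19.7 ± 1.27 TPM in the same order of types. Angptl4, a secreted lipoprotein lipase inhibitor, was instead high in both nerve types, at 23.2 ± 1.73 TPM in Fb-Epn and 22.8 ± 2.08 in Fb-Par against 0.449 ± 0.201 in Fb-Skn. Loxl2, a lysyl oxidase, was highest in Fb-Par, at 1061 ± 22.9 TPM against 413 ± 8.04 in Fb-Epn and 567 ± 22.6 in Fb-Skn.

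Of 14 other regulators of the HIF pathway tested, 1 was higher and 3 lower in Fb-Epn against Fb-Skn (23.0% and 20.9% of all tested genes), 3 were higher and 2 lower in Fb-Par against Fb-Skn (23.2% and 22.4%), and 1 was higher and 1 lower between the nerve types (20.2% and 18.6%). Arnt, the shared partner subunit, had similar means in the nerve types: 42.4 ± 1.23 TPM for Fb-Par beside 45.5 ± 5.15 TPM for Fb-Epn. It was not called between them. Its Fb-Skn mean was lower, at 28.6 ± 0.119 TPM. The difference of Fb-Epn from Fb-Skn was called (log2 fold change 0.53 ± 0.076 SE, edgeR adjusted p = 3.69e-05). Cited2, which competes with HIF for its coactivator, was highest in Fb-Par, at 415 ± 3.58 TPM against 170.2 ± 2.34 in Fb-Epn and 200.2 ± 6.65 in Fb-Skn, and was lower in Fb-Epn than in Fb-Par (log2 fold change -1.27 ± 0.038 SE, edgeR adjusted p = 1.18e-12).

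Of 21 glycolysis and lactate genes outside the set that were tested, 5 were higher and 5 lower in Fb-Epn relative to Fb-Skn (23.0% and 20.9% of all tested genes), 7 were higher and 5 lower in Fb-Par than in Fb-Skn (23.2% and 22.4%), and 4 were higher and 7 lower in Fb-Epn compared with Fb-Par (20.2% and 18.6%). Pdk4, a pyruvate dehydrogenase kinase tied to fat oxidation, ran against Pdk1, at 6.91 ± 0.702 TPM in Fb-Par against 0.409 ± 0.296 in Fb-Epn and 0.133 ± 0.134 in Fb-Skn. The insulin-responsive transporter Slc2a4 was lower in Fb-Epn than in Fb-Par (log2 fold change -3.09 ± 0.59 SE, edgeR adjusted p = 0.000492), though it averaged no more than 1.61 TPM in any type. Of 7 pentose phosphate genes, 4 were not called between Fb-Epn and Fb-Skn.

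Genes of mitochondrial oxidation gave small differences, and the numbers called in each direction depended on the scale. By edgeR, 23.0% of all tested genes were higher and 20.9% lower in Fb-Epn against Fb-Skn, and 23.2% and 22.4% in Fb-Par against Fb-Skn. Of 26 pyruvate dehydrogenase and TCA cycle genes, 0 were higher and 12 lower in Fb-Epn relative to Fb-Skn by edgeR (median log2 fold change -0.17), but 5 were higher and 4 lower on the TPM scale. In Fb-Par against Fb-Skn, 1 was higher and 7 lower by edgeR, and 6 were higher and 3 lower on the TPM scale. The mitochondrial pyruvate carrier Mpc2 averaged 219 ± 5.95 TPM in Fb-Epn, against 274 ± 9.35 in Fb-Par and 378 ± 20.7 in Fb-Skn (log2 fold change -0.93 ± 0.063 SE for Fb-Epn against Fb-Skn, edgeR adjusted p = 1.17e-08). Of 29 nuclear genes of the respiratory chain, 0 were higher and 14 lower in Fb-Epn relative to Fb-Skn by edgeR (median -0.25), against 4 and 5 on the TPM scale, and 1 was higher and 13 lower in Fb-Par than in Fb-Skn (median -0.22), against 2 and 4. Between the nerve types 28 of the 29 were not called by edgeR. On log2(TPM + 1), the Fb-Epn to Fb-Skn medians were -0.031 for the TCA cycle list and -0.11 for the respiratory chain, beside 0.13 over all tested genes. Those of Fb-Par to Fb-Skn were 0.039 and -0.063, beside 0.12. Both lists thus stayed below the median of all tested genes on either scale.

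Of 10 other collagen hydroxylase genes, 8 were lower and 1 higher in Fb-Par against Fb-Skn (22.4% and 23.2% of all tested genes). In Fb-Epn against Fb-Skn, 4 were lower and 2 higher (20.9% and 23.0%), and between the nerve types 7 were higher in Fb-Epn and 0 lower (20.2% and 18.6%). Plod2, the lysyl hydroxylase of collagen telopeptides, followed the order of Pfkfb3, at 722 ± 6.24 TPM in Fb-Epn, against 345 ± 14.1 in Fb-Par and 161 ± 5.07 in Fb-Skn (log2 fold change 2.02 ± 0.033 SE for Fb-Epn against Fb-Skn, edgeR adjusted p = 1.14e-15). P4ha3 had the order of P4ha2, highest in Fb-Skn at 661 ± 15.8 TPM, against 319 ± 11.3 in Fb-Epn and 188 ± 13.1 in Fb-Par.

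**Figure D5:**
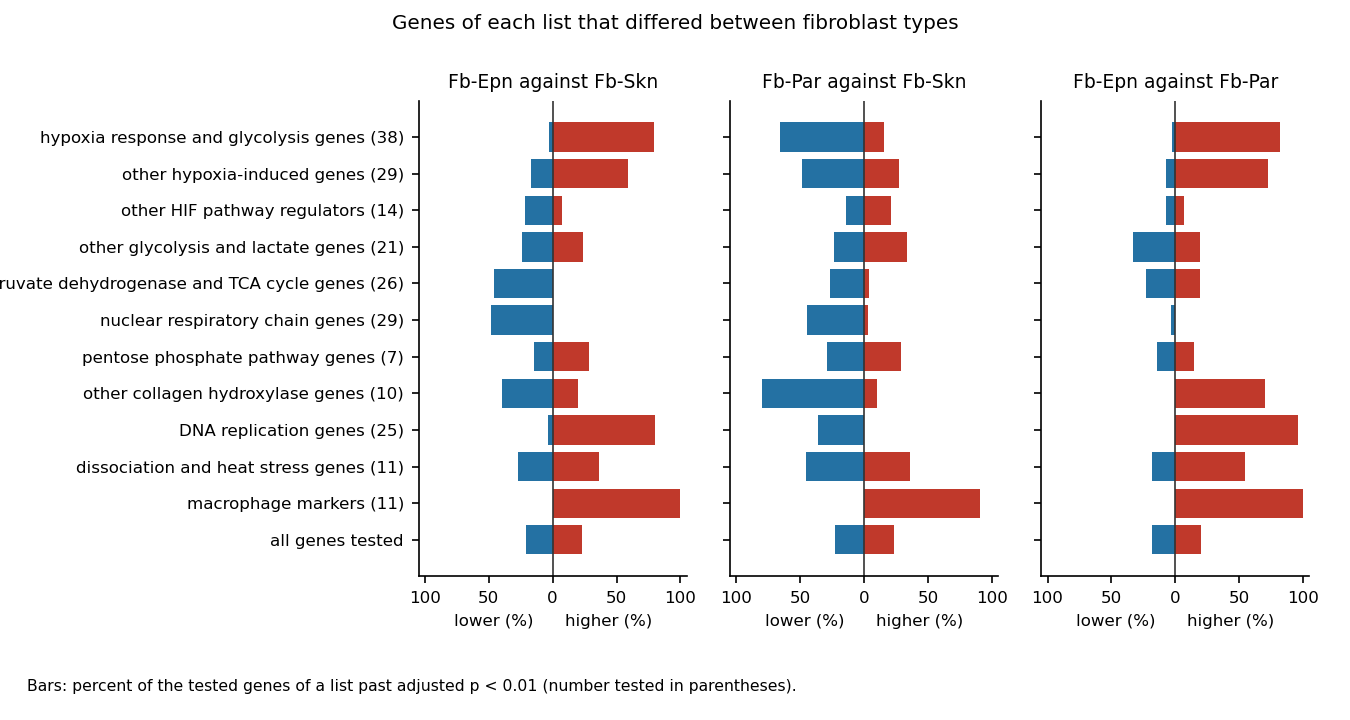
Percent of the tested genes of each list that were higher (right, red) or lower (left, blue) at an adjusted p under 0.01 in the 3 comparisons, with all tested genes in the last row; the number of tested genes stands beside each name. The hypoxia response and glycolysis genes extend to the right in the outer panels and to the left in the middle one, where 25 of 38 were lower, and the macrophage markers extend to the right in all 3.

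Genes of proliferation, macrophages and cell handling were counted in the same libraries. All 25 DNA replication genes were tested: 20 were higher and 1 lower in Fb-Epn relative to Fb-Skn, 0 were higher and 9 lower in Fb-Par than in Fb-Skn (4 lower on the TPM scale), and 24 were higher in Fb-Epn compared with Fb-Par. Their summed TPM was 653 to 668 in Fb-Epn, 263 to 288 in Fb-Par and 391.6 to 406 in Fb-Skn, the order that 25 genes of the set showed. Of 11 macrophage markers, 11 were higher in Fb-Epn than in either other type and 10 were higher in Fb-Par against Fb-Skn, with a summed TPM of 1311 to 1386 in Fb-Epn, 282 to 288 in Fb-Par and 83.8 to 88.3 in Fb-Skn; Cd68 averaged 153, 27.8 and 7.87 TPM and Ptprc 5.80, 1.44 and 0.361 TPM in the order Fb-Epn, Fb-Par, Fb-Skn. Macrophages also express Hif1a, Hk2, Ldha and Slc16a3. Of 11 genes of dissociation and heat stress, 4 were higher and 3 lower in Fb-Epn against Fb-Skn (median log2 fold change 0.059, 23.0% and 20.9% of all tested genes called), 4 were higher and 5 lower in Fb-Par against Fb-Skn (median 0.025, 23.2% and 22.4%), and 6 were higher and 2 lower between the nerve types (median 0.43, 20.2% and 18.6%). The part of proliferation, of macrophages or of handling in the results of the set was not tested.

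Fibroblast markers were high in every library: the summed TPM of 9 fibroblast markers was 44031 to 44375 in Fb-Epn, 35359 to 36195 in Fb-Par and 41398 to 42741 in Fb-Skn. Keratinocyte markers were close to 0, at 2.51 to 4.798 TPM summed over 9 genes.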

How the data were processed

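RNA from the 9 fibroblast libraries was poly(A)-selected and sequenced in pairs with a directional kit. Per the labels and the study's methods, reads were checked with FastQC 0.11.7, trimmed with Trimmomatic 0.38, aligned to rn6 with HISAT2 2.1.0 and counted with featureCounts 1.6.3; strand and multi-mapping settings are not given in the sources used here, so overlapping and duplicated genes can share or lose reads. The authors deposited raw counts per gene and, computed from them and the gene length, TPM and FPKM; FPKM was not used. Counts divided by TPM and length gave 1 constant per library within a relative deviation of 8.6e-07.

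Counts were tested with edgeR 4.0.16 (TMM factors, default expression filter, quasi-likelihood test, 1 model of 9 libraries) in R 4.3.3, at an adjusted p of 0.01 and, for DE genes, an absolute log2 fold change over 2; the study names these numbers but does not state that its p was adjusted. The edgeR step was tested on simulated data. TPM gave levels, sums and shares. Exact intervals on pooled counts cover counting error only. Tables and figures used Python 3.11.15, pandas 2.3.3, scipy 1.17.1 and matplotlib 3.10.9. Replicates differed by more than sampling noise, and the numbers in their labels did not pair the types.

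The members and lists were chosen with earlier results of these data known. Every gene found of the set is named; of each companion list, at most the 2 called genes with the largest change in each direction of each comparison. Marker genes, the partners within enzyme families (Ldhb, Slc16a1) and copy rows were named after their values were seen. Pfkfb4 was skipped by the symbol rule. RefSeq promoters (GRCr8) of the set were matched by symbol or, for Ca9 and Ca12, by Entrez identifier. None was found for Ndrg1, Pgk1 and Slc2a3, and no coordinates were converted between builds. Alternatives were DESeq2 1.42.0, limma 3.58.1 on log2(TPM + 1) and log2(TPM + 0.1), 3 other scalings, 2 other filters, other thresholds, only the types compared, a replicate block, copy rows added and each library left out. Some genes of the companion and marker lists are not reported here.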

Additional observations from a re-analysis of the deposited data

How the results depend on the processing

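When each library was dropped in turn, the number of genes of the set past the adjusted p ranged from 29 to 33 for Fb-Epn against Fb-Skn, from 27 to 30 for Fb-Par against Fb-Skn and from 31 to 33 for Fb-Epn against Fb-Par; the number of DE genes stayed at 4, ranged from 3 to 4 and ranged from 10 to 13. Over the other alternatives, the first number ranged from 31 to 34, 25 to 32 and 31 to 34 and the second, at the limit of 2, from 3 to 5, 2 to 4 and 9 to 12. A log2 fold change limit of 1 in place of 2 gave 15, 10 and 22 genes. Among the single-gene values under all alternatives, 66 lost a call and 36 gained one, and 2 values of a gene called by edgeR changed sign: P4ha1 in Fb-Par against Fb-Skn was 0.040 with limma on log2(TPM + 1) and 0.040 on log2(TPM + 0.1), against -0.11 by edgeR. The cause was not tested. Uncalled values of Ca12, Eno2, Hk1, Pfkm and Pfkp also crossed 0 in at least 1 comparison.

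Same-numbered libraries did not deviate together (correlations from -0.08 to 0.02). With the replicate number as a block, 32, 29 and 32 genes were past the adjusted p and 4, 3 and 11 were DE genes. Adding to Tpi1 the row in the mirrored position, an alternative chosen after seeing the data, gave 32, 30 and 32 genes past the adjusted p. The scalings of the companion lists were also compared after seeing the data. Depth limits Ca9, Ca12, Eno2, Tpi1, Slc2a3, Egln3 and Ankrd37, whose lowest libraries held under 20 counts.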
